A study of Mus musculus with 12 samples.

Results

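The genes of WNT signalling were followed in spiral ganglion neurons, the cochlear neurons that carry sound information to the brain. The set was fixed by gene symbol and held 45 genes for ligands, receptors, modulators and target genes. Of these, 42 had a row among the 25674 genes of the count table, and 25 passed the filter on low counts among 14813 genes tested. Wnt4, Wnt7b and Dkk2 were not analysed here. RNA was sequenced from 12 libraries of 100 tdTomato-positive neurons each, sorted at E14.5 of mouse development from microdissected spiral ganglia. The 6 control libraries came from embryos with the Neurod1Cre transgene and the Cre-dependent red reporter Rosa26tdTOM. The 6 ISL1CKO libraries came from embryos of genotype Neurod1Cre;Isl1loxP/loxP;Rosa26tdTOM, so that both groups carried the Cre transgene and the reporter. Cre in this line was placed under Neurod1 sequences on a bacterial artificial chromosome, and removal of floxed Isl1 was thus limited to cells that express or expressed Neurod1. Per the labels' protocols, the lines were of mixed C57BL/6/sv129 background, each library held the ganglia of both ears of a single embryo of either sex, and the embryos came from a number of litters that the labels do not assign to libraries. Litter and genotype therefore cannot be told apart here. The labels also name the replicate numbers technical, whereas the design text calls the libraries biological replicates. If they were not separate embryos, the p-values measure only the spread between these libraries.

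The libraries held 11895603 to 13857480 counts each. The mitochondrial share of counts was 0.845 to 1.02% in ISL1CKO and 1.05 to 1.65% in controls, with no overlap, and its part in the results was not tested. The neuronal identity of the sort was checked with 14 markers of spiral ganglion neurons, all of which exceeded 3 counts in every library. Their summed level was 13549 to 16440 CPM (CPM being the depth-scaled count unit, after TMM scaling of library sizes) in ISL1CKO and 16238 to 18468 CPM in controls. Of the 14, 6 were called by edgeR, where 10.2% of all tested genes were. Nefl, Nefm, Gata3 and Ntrk3 were lower in ISL1CKO, Gata3 by 6.56-fold, and Neurod1 and Stmn2 were higher. Isl1 itself, on chromosome 13 at 116298281 to 116309689 (GRCm38), averaged 1391 ± 184 CPM in ISL1CKO and 1538 ± 217 CPM in controls (SD, n = 6), and did not pass the test (edgeR adjusted p = 0.460). Counts over the whole gene do not show whether the floxed segment was removed, so the genotype rests on the labels. The libraries ISL1CKO 2, 3 and 5 held transcripts of both sexes, with Xist at 62.9, 77.8 and 132 CPM beside a mean of 61, 87.3 and 35.7 CPM over 4 Y-linked genes, although each was labelled as a single embryo. Results are therefore also given without these 3 libraries. In bulk libraries, fewer cells of a type and less RNA per cell cannot be told apart.

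WNT ligands are secreted, lipid-modified proteins that bind Frizzled receptors. With the co-receptors LRP5 or LRP6 they stabilise beta-catenin, which acts with TCF and LEF factors on targets such as Axin2. With ROR or RYK receptors and the planar polarity proteins VANGL and CELSR they steer cell orientation and growing axons without beta-catenin. R-spondins bind LGR4 and LGR5 and restrain the ubiquitin ligases RNF43 and ZNRF3, which remove Frizzled receptors from the cell surface. In the inner ear, WNT signalling is known for its part in otic growth and sensory patterning, and planar polarity genes for the turning of auditory nerve fibres.

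The upstream sequences of the called members Wnt3 and Lgr4, both of which were lower in ISL1CKO, are shown because they are the called members found in the RefSeq promoter table (GRCm38.p6), 2 of 4. Each ends before the first annotated exon. Capitals mark TAATG on either strand, a core recognised by LIM homeodomain proteins, the family of ISL1.
Lgr4: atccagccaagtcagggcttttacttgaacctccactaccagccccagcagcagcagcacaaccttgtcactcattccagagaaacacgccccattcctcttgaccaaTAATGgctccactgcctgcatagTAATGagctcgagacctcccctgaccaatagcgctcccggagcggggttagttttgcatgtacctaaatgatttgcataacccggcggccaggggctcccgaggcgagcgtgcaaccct
Wnt3: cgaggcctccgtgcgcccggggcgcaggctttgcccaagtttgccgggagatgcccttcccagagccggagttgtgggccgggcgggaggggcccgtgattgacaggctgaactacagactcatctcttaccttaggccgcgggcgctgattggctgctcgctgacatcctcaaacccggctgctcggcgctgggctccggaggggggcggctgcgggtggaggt
The Lgr4 window is chr2:109917397-109917646 on the plus strand and holds TAATG at 2 places, which start 142 and 119 bases before the RefSeq start. The Wnt3 window is chr11:103773925-103774149, also on the plus strand, and holds none. TAATG was present in 23.9% of all 32851 promoters of the table over 250 bases and in 22.5% over the 225 bases shown for Wnt3. The TCF/LEF core CTTTGAT was found in neither window, against 3.2% and 3.0% of all promoters over the same lengths. Such matches describe letters, not binding.

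Of the 25 tested members, 4 passed an adjusted p of 0.05 in the quasi-likelihood test of edgeR, adjusted by Benjamini-Hochberg over all tested genes. The receptor gene Fzd3 was higher in ISL1CKO, and the ligand gene Wnt3 and the R-spondin receptor genes Lgr4 and Lgr5 were lower. The 4 calls made up 16% of the tested members, where 10.2% of all tested genes were called. The members were chosen with earlier results of these data known, so this comparison is descriptive only. In the lower direction there were 3 members against 5.19% of all tested genes, and in the higher direction 1 against 5.01%. The median log2 fold change was 0.45 over the tested members and 0.0045 over all tested genes. The median over the members includes low genes with wide spread, such as Fzd4, Fzd8 and Fzd10, and is descriptive only. Without ISL1CKO 2, 3 and 5 only Fzd3 was called, among 28 members then tested, while the count over all genes went from 1511 to 767.

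**Figure D1:**
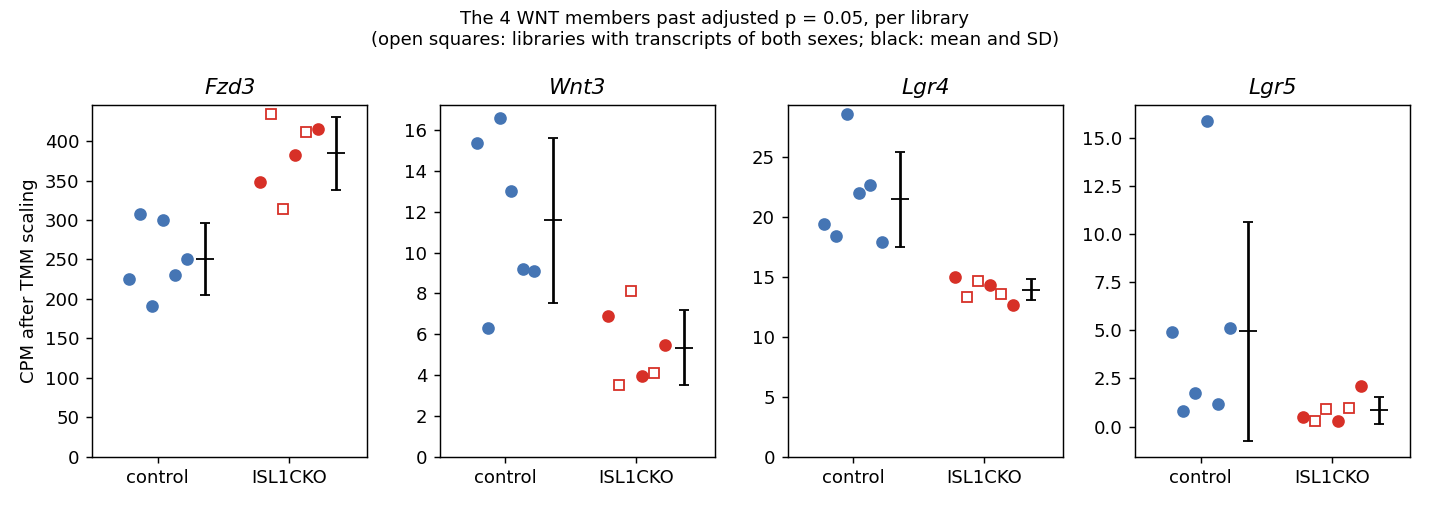
Level in CPM after TMM scaling (vertical axis, linear) of Fzd3, Wnt3, Lgr4 and Lgr5 in the 6 control (blue) and 6 ISL1CKO (red) libraries, 1 symbol per library, with the mean and SD in black. Open squares are the 3 ISL1CKO libraries with transcripts of both sexes. The groups are apart for Fzd3 and Lgr4 and overlap for Wnt3 and Lgr5, and a single control reaches 15.9 CPM of Lgr5.

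Among the ligand genes, Wnt3 (chromosome 11, 103774150 to 103817957, plus strand) was lower. WNT3 is a ligand best known for beta-catenin signalling. In ISL1CKO libraries 1 to 6, Wnt3 stood at 6.89, 3.49, 8.13, 3.96, 4.08 and 5.49 CPM. In control libraries 1 to 6, Wnt3 stood at 15.4, 6.29, 16.6, 13.0, 9.19 and 9.08 CPM. All 6 ISL1CKO libraries lay below the control median, and 4 of them lay below the lowest control, so the groups overlapped through control 2. The means were 5.34 ± 1.85 and 11.6 ± 4.04 CPM (SD, n = 6), which gave -1.12 as a log2 fold change (standard error 0.31, edgeR adjusted p = 0.0324). The Wnt3 call lay close to the threshold and was lost on leaving out control 1, 3 or 4 (edgeR adjusted p of 0.0732, 0.0713 and 0.0622) or ISL1CKO 2, 4, 5 or 6 (0.0695, 0.0704, 0.0722 and 0.0593). It was also lost without ISL1CKO 2, 3 and 5 together (log2 fold change -1.09, edgeR adjusted p = 0.153).

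Wnt5a, whose product mostly signals through ROR and RYK receptors, was the other tested ligand gene and was not called. Its level was 0.554, 0.466, 1.05, 0.822, 0.656 and 3.81 CPM in ISL1CKO 1 to 6 and 5.23, 0.592, 1.67, 0.889, 9.91 and 1.83 CPM in controls 1 to 6. Controls 1 and 5 stood high and the remaining controls fell within the ISL1CKO range. The log2 fold change of Wnt5a was -1.44, with a 95% interval from -3.02 to 0.14 (edgeR adjusted p = 0.262). It was -0.73 without control 5 and -2.22 without ISL1CKO 6, and was not called in either. Reads of Wnt5a could not be separated from the antisense gene Gm2670, because the use of strand in counting is not stated. The ligand genes Wnt2b, Wnt5b, Wnt7a, Wnt9a and Wnt11 were too low to be tested. Their highest counts in any library were 18, 9, 38, 54 and 36. Wnt7a was confined to ISL1CKO 1, with 38 counts or 3.01 CPM, and had at most 1 count in any other library. Wnt9a stood at 2.22, 4.03 and 3.96 CPM in ISL1CKO 1, 4 and 6 and at 0 to 0.365 CPM in the other 3. In controls Wnt9a ranged from 0 to 2.07 CPM. The highest Wnt11 value was that of ISL1CKO 2, at 2.79 CPM.

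The 7 tested Frizzled genes held 1 call, a rise, where 10.2% of all tested genes were called. Fzd3 (chromosome 14, 65192449 to 65262463, minus strand) encodes a receptor that guides axon tracts together with CELSR3. In ISL1CKO 1 to 6, Fzd3 stood at 348, 434, 314, 383, 412 and 415 CPM. In controls 1 to 6, Fzd3 stood at 225, 307, 191, 300, 230 and 250 CPM. The groups did not overlap, the lowest ISL1CKO library being just above the highest control, while 6.78% of all tested genes had groups that did not overlap. The means were 384 ± 45.7 and 250 ± 45.3 CPM (SD, n = 6), which gave 0.62 as a log2 fold change, or 1.54-fold (standard error 0.12, edgeR adjusted p = 0.00297). Fzd3 was called in each of the 22 alternative settings. With any single library left out its log2 fold change ran from 0.54 to 0.68, and without ISL1CKO 2, 3 and 5 it was 0.60 (edgeR adjusted p = 0.0348).

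Per kilobase of annotated exon, Fzd3 had the highest level of the 10 Frizzled genes in both groups, at 30.0 CPM per kilobase in ISL1CKO and 19.6 in controls. The next were Fzd1, at 4.10 and 1.61 CPM per kilobase, Fzd7, at 2.28 and 1.09, and Fzd2, at 2.03 and 1.19. Fzd7 and Fzd2 changed places between the groups, with spreads that overlapped.

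**Figure D2:**
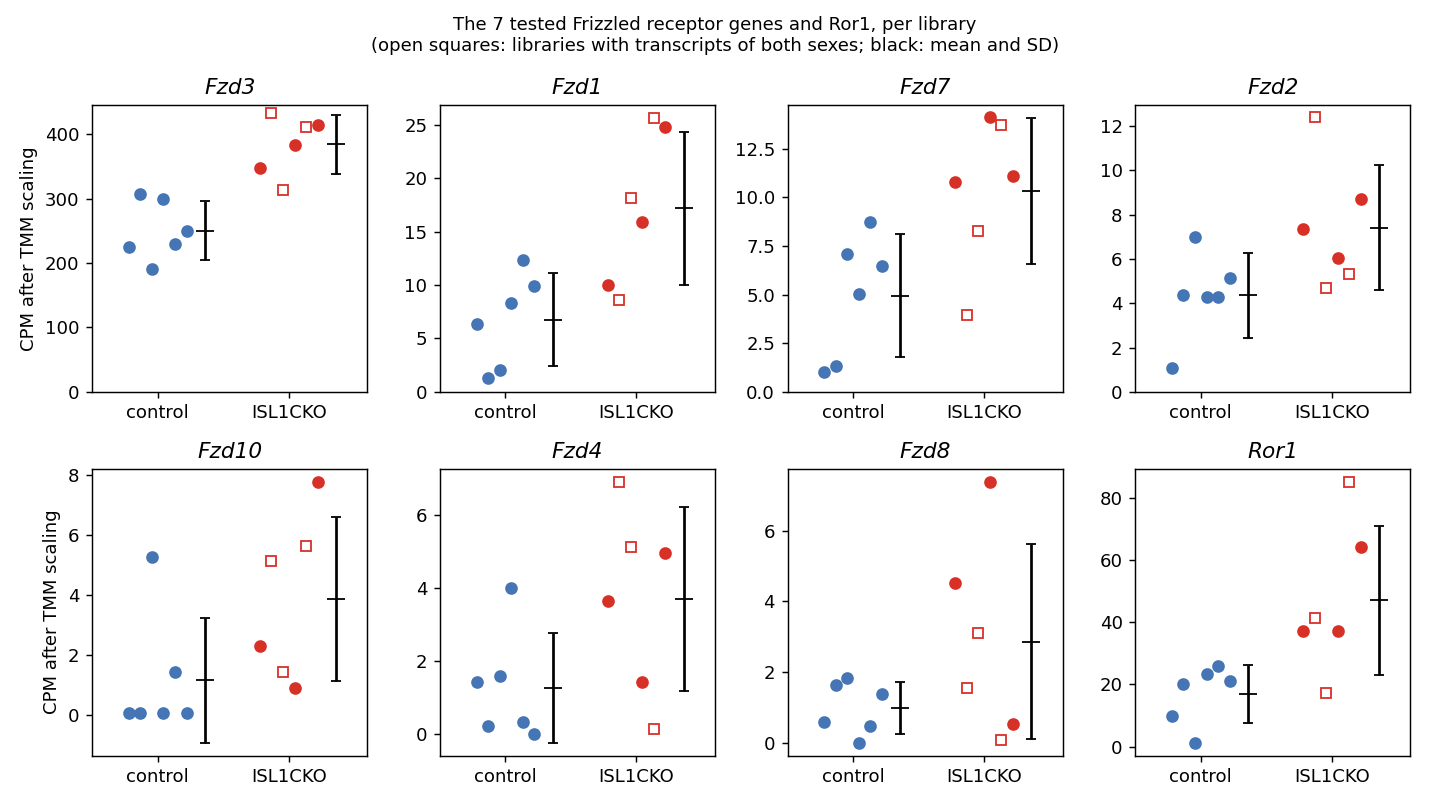
Level in CPM after TMM scaling (vertical axis, linear, its own range in each panel) of the 7 tested Frizzled genes and Ror1 in 6 control (blue) and 6 ISL1CKO (red) libraries, with mean and SD in black. Open squares are the libraries with transcripts of both sexes. Fzd3 lies far above the others and is the panel in which the groups do not overlap.

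The other 6 tested Frizzled genes had positive log2 fold changes, from 0.77 to 1.73, and none was called by edgeR. In edgeR's test 2 of the 6, Fzd1 and Fzd7, were under an unadjusted p of 0.05, where 23.3% of all tested genes were. DESeq2's Wald test called Fzd1 and limma-voom called Fzd10. The filter keeps low genes that reach the minimum in enough libraries of either group, so the direction of those that passed supports nothing by itself. Fzd1, a broadly expressed receptor for WNT ligands, stood at 9.98, 8.61, 18.2, 15.9, 25.7 and 24.8 CPM in ISL1CKO 1 to 6. Fzd1 stood at 6.40, 1.33, 2.09, 8.37, 12.4 and 9.88 CPM in controls 1 to 6. All 6 ISL1CKO libraries were above the control median and 4 were above the highest control. Its log2 fold change of 1.35 had a 95% interval from 0.34 to 2.37 (edgeR adjusted p = 0.0900), against 0.0247 from DESeq2. Fzd7 stood at 10.8, 3.96, 8.28, 14.1, 13.7 and 11.1 CPM in ISL1CKO 1 to 6 and at 0.997, 1.33, 7.09, 5.04, 8.72 and 6.44 CPM in controls 1 to 6. ISL1CKO 2 was the low library of Fzd7, and controls 1 and 2 were the lowest of all. The log2 fold change of Fzd7 was 1.06, with a 95% interval from 0.02 to 2.10 (edgeR adjusted p = 0.205). Fzd2 averaged 7.42 ± 2.84 against 4.36 ± 1.92 CPM (SD, n = 6), which as a log2 fold change was 0.77 (edgeR adjusted p = 0.259).

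Fzd4, Fzd8 and Fzd10 were low and scattered. Fzd4, which also serves as the receptor of norrin, stood at 3.64, 6.91, 5.12, 1.42, 0.146 and 4.95 CPM in ISL1CKO 1 to 6 and at 1.41, 0.222, 1.59, 4.00, 0.317 and 0 CPM in controls 1 to 6. ISL1CKO 5 was low and control 4 high, so the ranges overlapped (log2 fold change 1.55, 95% interval -0.41 to 3.51, edgeR adjusted p = 0.339). Fzd8 stood at 4.51, 1.55, 3.09, 7.39, 0.0729 and 0.533 CPM in ISL1CKO 1 to 6 and at 0.582, 1.63, 1.84, 0, 0.476 and 1.39 CPM in controls 1 to 6. Of these, ISL1CKO 1, 3 and 4 were above every control (log2 fold change 1.53, 95% interval -0.39 to 3.44, edgeR adjusted p = 0.335). Fzd10 stood at 2.30, 5.12, 1.43, 0.896, 5.62 and 7.77 CPM in ISL1CKO 1 to 6 and at 0.0831, 0.0740, 5.26, 0.0741, 1.43 and 0.0732 CPM in controls 1 to 6. In Fzd10, 4 controls held a single count each and control 3 stood at the level of the ISL1CKO libraries. Its log2 fold change was 1.73, with a 95% interval from -0.40 to 3.86 (edgeR adjusted p = 0.326), and 3.44 without control 3 (edgeR adjusted p = 0.0339). Over all fits with 1 library left out, Fzd10 ran from 1.40 to 3.44, Fzd4 from 1.27 to 2.38 and Fzd8 from 0.98 to 1.79. The limma-voom value of Fzd10 was 3.65 (adjusted p = 0.0464). Fzd5, Fzd6 and Fzd9 were not tested, with at most 7, 36 and 7 counts in any library. The highest Fzd6 libraries were ISL1CKO 2 and 5, at 2.79 and 1.46 CPM, against at most 0.366 CPM in controls.

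None of the 7 tested co-receptor and polarity genes was called, where 10.2% of all tested genes were. By unadjusted p, 1 of the 7 was under 0.05 in edgeR's test, where 23.3% of all tested genes were, and this was Ror1. DESeq2's Wald test called none of the 7 and limma-voom called Ror1 (adjusted p = 0.0496). ROR1 is a receptor tyrosine kinase-like protein that binds WNT5A. Its gene stood at 37.3, 41.2, 17.2, 37.2, 85.1 and 64.0 CPM in ISL1CKO 1 to 6 and at 9.80, 20.2, 1.33, 23.3, 25.9 and 21.1 CPM in controls 1 to 6. The 5 higher ISL1CKO libraries were above every control, and ISL1CKO 3 fell among the controls. The log2 fold change of Ror1 was 1.47, with a standard error of 0.50 and a 95% interval from 0.41 to 2.53 (edgeR adjusted p = 0.0793). Ror1 passed on leaving out control 3 (edgeR adjusted p = 0.0445) or ISL1CKO 3 (0.0490), and over all 12 such fits the adjusted p ran up to 0.183.

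Ror2, the close relative of Ror1, averaged 27.3 ± 15.4 CPM in ISL1CKO and 26.4 ± 10.2 CPM in controls (SD, n = 6). On the log2 scale its fold change of 0.05 had a 95% interval from -0.72 to 0.82 (edgeR adjusted p = 0.954). The difference between the fold changes of Ror1 and Ror2 was not tested. Ryk, which encodes an axon guidance receptor for WNT5A, averaged 13.8 ± 3.49 and 14.0 ± 9.59 CPM, with control 3 at 32.0 CPM and control 2 at 4.14 CPM. The 95% interval of its log2 fold change ran from -0.83 to 0.78 (edgeR adjusted p = 0.981). Lrp6 averaged 45.2 ± 18.1 and 43.2 ± 3.13 CPM (SD, n = 6), which as a log2 fold change was 0.07 with a 95% interval from -0.36 to 0.50 (edgeR adjusted p = 0.881). The spread of Lrp6 in ISL1CKO came from replicate 6, at 80.0 CPM, the others being 28.4 to 47.1 CPM. Lrp5 was far lower, at 0.833 ± 0.457 and 0.978 ± 0.936 CPM (SD, n = 6), and differences within its 95% interval, from -1.78 to 1.32, were not detectable at this depth.

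Vangl2 and Vangl1 encode the membrane proteins at the core of planar polarity. Vangl2 averaged 60.7 ± 9.21 CPM in ISL1CKO and 63.7 ± 10.5 CPM in controls (SD, n = 6). The 95% interval of its log2 fold change, from -0.36 to 0.22, was the narrowest after that of Fzd3 among the tested members (edgeR adjusted p = 0.814). Vangl1 averaged 5.82 ± 1.87 and 4.26 ± 3.74 CPM (SD, n = 6; log2 fold change 0.45, 95% interval -0.60 to 1.50, edgeR adjusted p = 0.643). Vangl1 overlaps the antisense gene Gm16160.

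Secreted antagonists were represented in the test by Sfrp1 alone. SFRP1 binds WNT ligands outside the cell. Sfrp1 ranged from 9.78 to 35.6 CPM in ISL1CKO, with a median of 18.9 CPM, and from 13.5 to 28.9 CPM in controls, with a median of 18.7 CPM. Its log2 fold change was 0.04, with a 95% interval from -0.60 to 0.67 (edgeR adjusted p = 0.961). Sfrp2, Dkk1 and Notum were not tested, with at most 18, 10 and 4 counts in any library.

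Dkk3, a secreted member of the Dickkopf family, was also below the filter, but its groups did not overlap. Groups that did not overlap were found for 6.78% of all tested genes. In ISL1CKO 1 to 6, Dkk3 stood at 1.98, 2.17, 2.48, 5.53, 2.55 and 0.305 CPM. The controls stood at 0, 0, 0.0834, 0.148, 0 and 0 CPM, which is at most 2 counts in a library. Against a floor of 3 counts per library, Dkk3 was at least 10.7-fold higher in ISL1CKO. With no filter on low counts, edgeR gave it an adjusted p of 0.00153, the only 1 of the 17 untested members to pass in that fit. Dkk3 stands out of the 17 through its ISL1CKO libraries alone, so these values are descriptive only. ISL1CKO 6 was the low library of its group, just above the floor.

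In the R-spondin branch 2 of 4 tested genes were called, both lower, where 5.19% of all tested genes were called lower. Lgr4 (chromosome 2, 109917647 to 110014257, plus strand) and Lgr5 (chromosome 10, 115450311 to 115587780, minus strand) encode receptors for R-spondins, and Lgr5 is a known marker of cochlear supporting cells that can act as hair cell progenitors. In ISL1CKO 1 to 6, Lgr4 stood at 15.0, 13.3, 14.7, 14.3, 13.6 and 12.7 CPM. In controls 1 to 6, Lgr4 stood at 19.4, 18.4, 28.6, 22.0, 22.7 and 17.9 CPM. The groups did not overlap, as in 6.78% of all tested genes, and the ISL1CKO libraries lay close together. The means were 13.9 ± 0.888 and 21.5 ± 3.98 CPM (SD, n = 6), which gave -0.63 as a log2 fold change (standard error 0.16, edgeR adjusted p = 0.0209). The call was kept with any 1 library left out, the adjusted p then running from 0.0204 to 0.0473. Without ISL1CKO 2, 3 and 5 the log2 fold change was the same, -0.63, and the call was lost (edgeR adjusted p = 0.144). It was also lost with the replicate number as a block.

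In ISL1CKO 1 to 6, Lgr5 stood at 0.475, 0.310, 0.903, 0.299, 0.948 and 2.13 CPM. In controls 1 to 6, Lgr5 stood at 4.90, 0.814, 1.75, 15.9, 1.19 and 5.12 CPM. Control 4 stood apart above the rest, and controls 2, 3 and 5 fell within the ISL1CKO range. Lgr5 had a log2 fold change of -2.54 (standard error 0.75; edgeR adjusted p = 0.0446). Its call was the least stable of the 4. Leaving out control 4 brought this to -1.70 (edgeR adjusted p = 0.146), and without ISL1CKO 2, 3 and 5 it was -2.35 (0.286). It was also lost without control 1 or 6 (edgeR adjusted p of 0.0692 and 0.0753) or ISL1CKO 1, 2, 3, 4 or 5 (0.0851, 0.0912, 0.0719, 0.0913 and 0.0827). With all libraries, Lgr5 was not called by limma-voom, with no filter on low counts, or with the replicate number as a block.

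Beside the fall of both receptor genes, some but not all markers of otic epithelium and of hair cells were lower. Markers of otic epithelium and supporting cells summed to 35.4 to 74.0 CPM in ISL1CKO and 111 to 166 CPM in controls. Of the 6 tested markers, 2 were called, both lower, where 5.19% of all tested genes were called lower. The 2 called were Tectb, at 0.500 against 18.9 CPM, and Sox9, at 12.7 against 53.2 CPM. Prox1, at 22.6 against 41.7 CPM, was not called and is also among the spiral ganglion neuron markers. Of the tested markers, 5 had negative log2 fold changes and Jag1 had a positive one, of 0.09. Epithelial Epcam and Cdh1 averaged under 1 CPM in both groups and Cldn6 exceeded 3 counts in 1 library. Among untested markers, Cdh1, Cldn6, Fgfr3, Otoa and Oc90 averaged higher in ISL1CKO and Hey2 lower, all under 1 CPM in both groups. Hair cell markers summed to 346 to 657 CPM in ISL1CKO and 504 to 826 CPM in controls. The largest part of this sum on average was Myo6, at 410 CPM in ISL1CKO and 407 CPM in controls. Of the 5 tested hair cell markers, 2 were called, both lower, where 5.19% of all tested genes were called lower. These were Pvalb, at 54.3 against 275 CPM, and Ccer2, at 3.83 against 36.7 CPM. Myo6, Myo7a and Otof were not called. Pou4f3, Gfi1, Espn and Lhx3 were not tested and averaged under 1 CPM in both groups. The part of epithelial or hair cells in the Lgr4 and Lgr5 results was not tested.

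Rspo2, a ligand of these receptors, stood at 28.6, 4.19, 2.41, 1.12, 7.66 and 2.67 CPM in ISL1CKO 1 to 6 and at 2.91, 1.78, 1.33, 8.67, 3.01 and 1.39 CPM in controls 1 to 6. ISL1CKO 1 and control 4 stood apart from their groups. The log2 fold change of Rspo2 was 1.28, with a 95% interval from -0.27 to 2.84 (edgeR adjusted p = 0.315). Without ISL1CKO 1 it was 0.17 (edgeR adjusted p = 0.904). Znrf3, which encodes a ubiquitin ligase that removes Frizzled receptors, averaged 22.3 ± 4.21 CPM in ISL1CKO and 16.4 ± 2.87 CPM in controls (SD, n = 6). All 6 ISL1CKO libraries of Znrf3 were above the control median, and the log2 fold change of 0.45 did not pass (95% interval 0.06 to 0.83, edgeR adjusted p = 0.142). Rnf43, Rspo1 and Rspo3 were not tested, with at most 8, 4 and 25 counts. The highest Rspo3 value was 1.91 CPM, in ISL1CKO 6. Wnt11, Fzd5, Fzd6, Sfrp2, Notum and Rspo3 overlap a gene on the opposite strand.

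**Figure D3:**
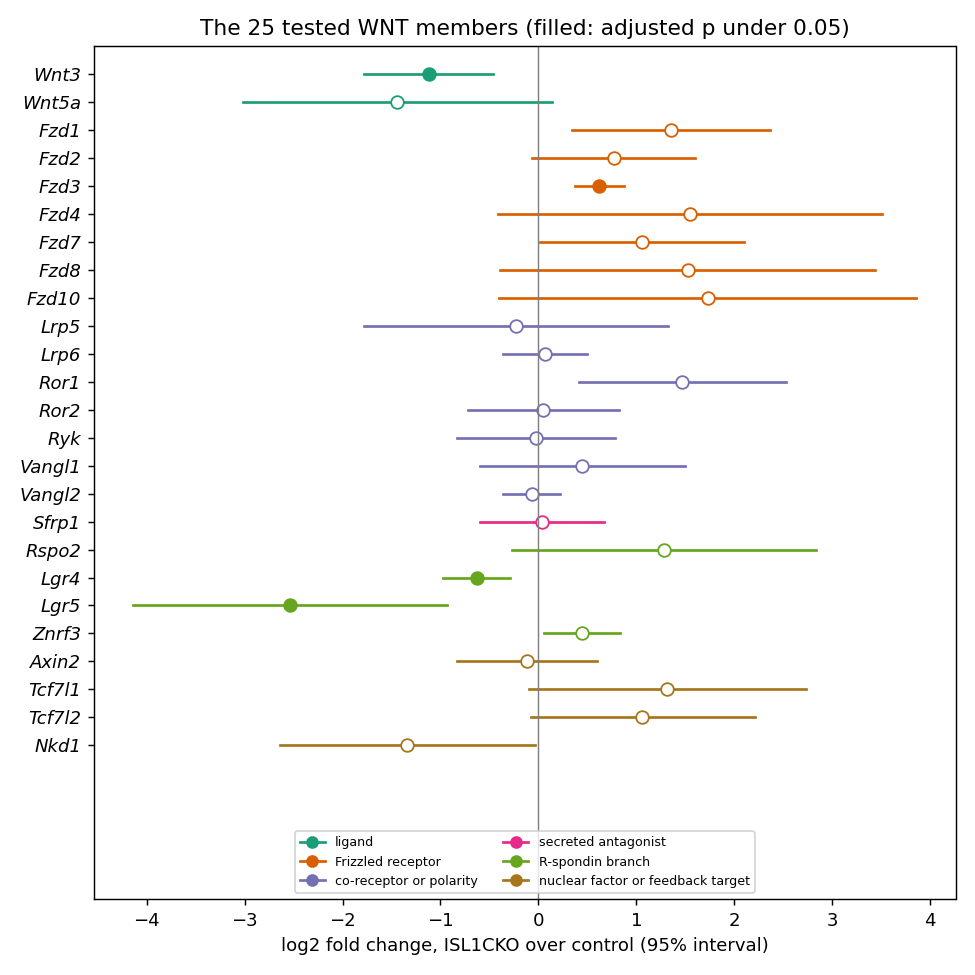
Log2 fold change of ISL1CKO over control (horizontal axis) with its 95% interval for the 25 tested members, coloured by role. Filled circles are the 4 members past an adjusted p of 0.05 in edgeR's test. Fzd3, Vangl2 and Lgr4 have narrow intervals, while Fzd10, Fzd4 and Fzd8 span from below 0 to over 3.

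Nuclear factors and feedback targets of beta-catenin signalling held 0 calls among 4 tested genes, where 10.2% of all tested genes were called. By unadjusted p, 1 of the 4 was under 0.05 in edgeR's test, where 23.3% of all tested genes were. DESeq2 and limma-voom also called none. Axin2, the feedback inhibitor commonly read as a target of the pathway, averaged 3.77 ± 1.34 CPM in ISL1CKO and 4.08 ± 1.14 CPM in controls (SD, n = 6). On the log2 scale its fold change was -0.12, with a 95% interval from -0.83 to 0.60 (edgeR adjusted p = 0.878). Nkd1, a feedback inhibitor that acts on Dishevelled, stood at 6.41, 4.35, 2.03, 5.83, 5.54 and 5.94 CPM in ISL1CKO 1 to 6. In controls 1 to 6, Nkd1 stood at 12.7, 10.4, 7.17, 0.296, 19.3 and 26.3 CPM. Control 4 alone lay below the ISL1CKO libraries, and the other 5 controls lay above all of them. With all libraries the log2 fold change of Nkd1 was -1.34, with a 95% interval from -2.64 to -0.03 (edgeR adjusted p = 0.202). Without control 4 it was -1.60 (edgeR adjusted p = 0.0146), without control 6 it was -0.99 (0.403), and limma-voom gave -0.38 (adjusted p = 0.840).

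Tcf7l1 and Tcf7l2 encode factors that carry beta-catenin to DNA. Tcf7l1 stood at 5.39, 3.65, 0.979, 0.149, 4.08 and 2.44 CPM in ISL1CKO 1 to 6 and at 0.665, 0.592, 0.584, 0.963, 1.59 and 2.27 CPM in controls 1 to 6. ISL1CKO 4 was the lowest library of all for Tcf7l1, while 4 ISL1CKO libraries were above every control (log2 fold change 1.31, 95% interval -0.10 to 2.73, edgeR adjusted p = 0.251). Tcf7l2 stood at 6.73, 18.5, 5.57, 4.33, 9.77 and 4.88 CPM in ISL1CKO 1 to 6 and at 3.32, 2.59, 0.584, 4.59, 9.75 and 3.00 CPM in controls 1 to 6. ISL1CKO 2 stood highest and control 3 lowest (log2 fold change 1.06, 95% interval -0.08 to 2.21, edgeR adjusted p = 0.253). With the Schwann cell marker level as a covariate the log2 fold changes were 0.92 for Tcf7l1 and 0.63 for Tcf7l2 (edgeR adjusted p of 0.418 and 0.445). Lef1 and Tcf7 were not tested, with at most 25 and 3 counts in any library. Axin2 and Tcf7l1 overlap an antisense gene each.

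Several members with wide spread are also expressed by glia, mesenchyme and dividing progenitors, whose markers were read in the same libraries. Schwann cell and satellite glia markers summed to 35.2 to 264 CPM in ISL1CKO and 32.0 to 188 CPM in controls, with 0 of 6 tested markers called in edgeR's test and 0 under an unadjusted p of 0.05. Dividing cell markers summed to 94.7 to 513 and 93.5 to 251 CPM, highest in ISL1CKO 2, 1 and 5. Of these 12 markers, 0 were called and 2 were under an unadjusted p of 0.05 in edgeR's test. Over all tested genes, 10.2% were called and 23.3% were under that unadjusted p. Mesenchyme markers summed to 72.1 to 122 and 38.9 to 84.9 CPM. The largest part of this sum on average was Tbx18 in ISL1CKO and Pou3f4 in controls. Of the 4 tested mesenchyme markers, 2 were called higher in ISL1CKO, where 5.01% of all tested genes were. These were Tbx18 (39.5 against 1.09 CPM) and Col3a1 (14.1 against 2.66 CPM). The others, Col1a2 (4.67 against 1.30 CPM) and Pou3f4 (27.4 against 52.9 CPM), were not called. All 4 were under an unadjusted p of 0.05 in edgeR's test, where 23.3% of all tested genes were. Among untested mesenchyme markers, Prrx1 averaged 4.72 against 0.337 CPM and Pdgfra 0.701 against 0.196 CPM. Twist1 had no library over 3 counts in ISL1CKO and averaged 1.13 CPM in controls. Col1a1 and Dcn averaged higher in ISL1CKO and Foxc1 and Lum lower, all under 1 CPM in both groups. Macrophage markers summed to 0.948 to 751 and 1.70 to 395 CPM. The part of these cells in the Frizzled and Ror1 values was not tested, except that the Schwann cell marker level as a covariate left Fzd3 at 0.58 (edgeR adjusted p = 0.0100), Fzd1 at 1.35 (0.114) and Ror1 at 1.32 (0.129). With that covariate Lgr4 was still called, at -0.62 (edgeR adjusted p = 0.0475). Wnt3 and Lgr5 were not called (0.0736 and 0.0608), with log2 fold changes of -0.97 in place of -1.12 and -2.52 in place of -2.54.

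**Figure D4:**
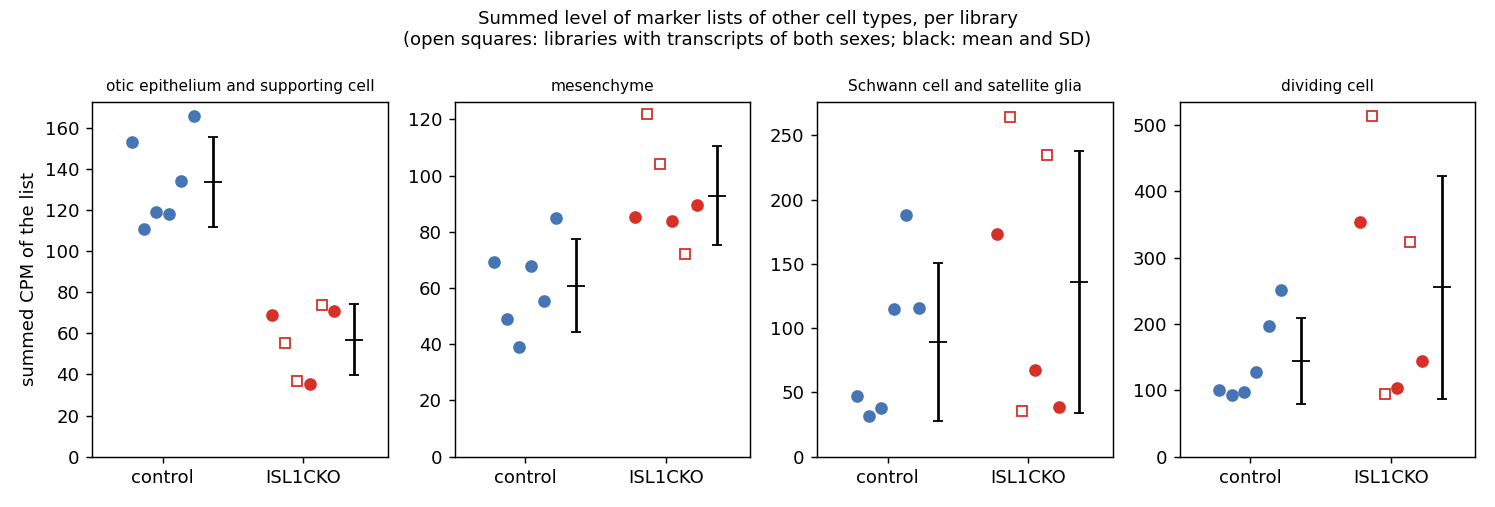
Summed CPM (vertical axis, linear from 0) of 4 marker lists of other cell types in 6 control (blue) and 6 ISL1CKO (red) libraries, with mean and SD in black and open squares for libraries with transcripts of both sexes. Otic epithelium and supporting cell markers are apart between the groups, at most 74.0 CPM in ISL1CKO and at least 111 CPM in controls, while glial and dividing cell markers overlap.

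The rest of the pathway was read from a second list of 96 genes for further ligands, antagonists, secretion, cytoplasmic relay, planar polarity, nuclear partners and targets. Of these, 87 had a row, 70 were tested and 13 were called, 5 lower and 8 higher, or 18.6% against 10.2% of all tested genes. The list was drawn up with earlier results of these data known, so its share of calls supports nothing by itself. The median log2 fold change over the 70 was 0.05. Cytoplasmic relay genes held 3 calls of 21. Amer2, an APC-binding inhibitor of the pathway, fell from 192 ± 29.2 to 68.4 ± 10.8 CPM (SD, n = 6), with controls from 169 to 246 CPM and ISL1CKO from 59.1 to 81.6 CPM. This was -1.49 as a log2 fold change (standard error 0.12, edgeR adjusted p = 1.6e-06). Apc, the scaffold of the beta-catenin destruction complex, rose from 239 ± 34.6 to 366 ± 27.4 CPM (SD, n = 6; log2 fold change 0.61, edgeR adjusted p = 5.82e-04), and its groups did not overlap. Csnk1g3, a casein kinase gene, was lower (log2 fold change -0.83, edgeR adjusted p = 0.0157). Ctnnb1, which encodes beta-catenin, averaged 131 ± 28.3 and 116 ± 13.6 CPM (SD, n = 6; log2 fold change 0.18, 95% interval -0.11 to 0.46, edgeR adjusted p = 0.463).

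**Figure D5:**
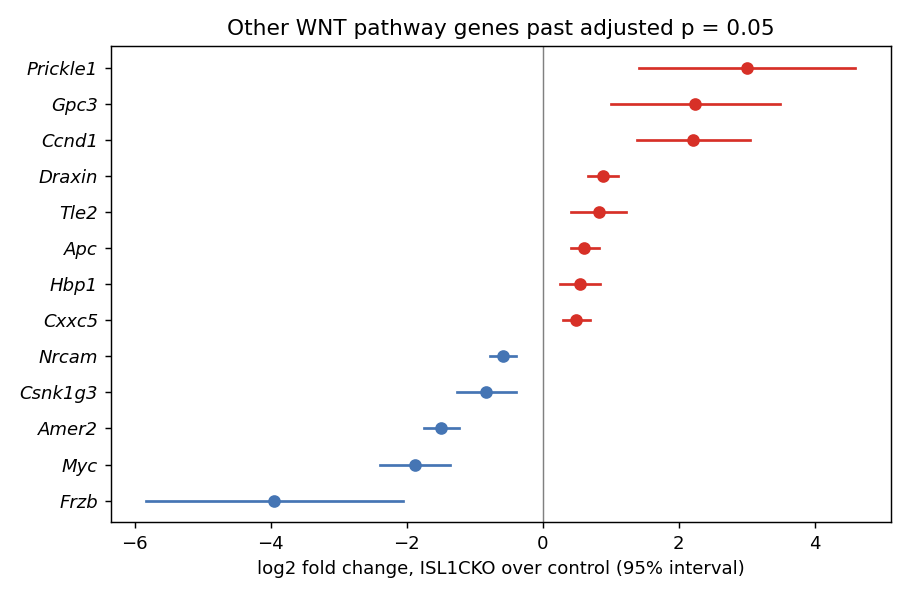
Log2 fold change of ISL1CKO over control (horizontal axis) with its 95% interval for the 13 called genes of the second WNT list, red for the 8 higher and blue for the 5 lower. Frzb and Prickle1 lie at the ends, at -3.95 and 3.00, with the widest intervals.

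Antagonists of the second list moved both ways. Draxin, a secreted axon guidance protein that also blocks WNT signalling, rose from 45.4 to 66.9 CPM in controls to 97.9 to 122 CPM in ISL1CKO (log2 fold change 0.88, standard error 0.10, edgeR adjusted p = 5.38e-05). Frzb, a secreted Frizzled-related antagonist, fell from 5.31 ± 3.14 to 0.338 ± 0.473 CPM (SD, n = 6; log2 fold change -3.95, edgeR adjusted p = 0.00914). Its call was lost without ISL1CKO 2, 3 and 5 (edgeR adjusted p = 0.110) and with limma-voom (adjusted p = 0.0866). Gpc3, a heparan sulphate proteoglycan gene, and Prickle1, a planar polarity gene, were higher (log2 fold change 2.24 with an edgeR adjusted p of 0.0226, and 3.00 with 0.0179). The Gpc3 call was lost without ISL1CKO 5 (edgeR adjusted p = 0.0538) or ISL1CKO 1 (0.0500 after rounding). The Prickle1 call was lost without ISL1CKO 6 (0.0501).

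Among genes often read as pathway targets, Myc and Ccnd1 went in opposite directions. Myc fell from 69.4 to 107 CPM in controls to 8.61 to 31.9 CPM in ISL1CKO (log2 fold change -1.88, standard error 0.24, edgeR adjusted p = 1.23e-04). Ccnd1, a G1 cyclin gene, rose from 35.4 ± 17.3 to 164 ± 102 CPM (SD, n = 6; log2 fold change 2.21, edgeR adjusted p = 0.00174). Nrcam, a neuronal adhesion gene, fell from 378 ± 35.0 to 252 ± 28.0 CPM (SD, n = 6; log2 fold change -0.59, edgeR adjusted p = 4.47e-04). The nuclear partners Tle2, Cxxc5 and Hbp1 were higher (log2 fold change 0.82, 0.49 and 0.55, with adjusted p from edgeR of 0.0109, 0.00235 and 0.0169). Without ISL1CKO 2, 3 and 5 the calls of Gpc3, Csnk1g3 and Hbp1 were lost (edgeR adjusted p of 0.0921, 0.188 and 0.130). Ccnd1, Tle2, Cxxc5 and Hbp1 share exon positions with a gene on the other strand, which makes their counts uncertain.

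Outside the tested genes of that list, Ndp, which encodes the FZD4 ligand norrin, showed groups that did not overlap. Among all tested genes, 6.78% had such groups. Ndp ranged from 0.146 to 2.78 CPM in ISL1CKO and no control library held more than 1 count of it. The lowest ISL1CKO library, ISL1CKO 5, held only 2 counts, which is under the floor of 3 counts per library. Against that floor the mean of Ndp was at least 6.50-fold higher in ISL1CKO. Ndp was named after its values were seen.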

How the data were processed

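For 12 libraries the authors deposited raw read counts, as whole numbers per Ensembl gene in 1 table. Per the submitters' processing notes, cutadapt 1.18, Bowtie 1.2.2, STAR 2.7.0c and featureCounts were used with the genome build GRCm38.p6; their roles, the annotation and the strand setting are not given in the sources used here. Symbols and coordinates came from GENCODE M21 on GRCm38, which located 25627 of 25674 genes.

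Genes were kept by filterByExpr (minimum count 10), scaled with TMM and compared between genotypes with the robust quasi-likelihood F-test of edgeR 4.0.16 under R 4.3.3, with no covariate and Benjamini-Hochberg adjustment over all tested genes (threshold 0.05). Standard errors were the absolute log2 fold change divided by the square root of F, and 95% intervals used the t quantile of the fit's degrees of freedom. The floor of 3 counts equalled 0.219 to 0.250 CPM and covers counting error only, since PCR reads without molecular identifiers are not independent molecules. Called members were given library by library, as were members that differed by 1 or more on the log2 scale; other members were given by means or ranges. All called genes of the second list were named. Members, lists and alternatives were chosen with earlier results of these data known. No pair of libraries was a duplicate: the chi-square per gene was at least 23 over 66 pairs. On simulated counts for this comparison with 14406 genes, edgeR recovered 44.6% of genes altered by 1 and 83.9% of those altered by 2 on the log2 scale. Its false calls were 3.68%, those of limma-voom (limma 3.58.1) 3.82% and those of DESeq2 1.42.0 14.8%. Only 195 of the 14406 genes were altered, and libraries with both sexes or other cell types were not simulated. The rates in the data may therefore differ. Alternatives changed the scaling, filter, test, covariates and libraries.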

Additional observations from a re-analysis of the deposited data

Results flagged for a closer look

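Each tested member was checked in both groups with Dixon's test for a library that stands apart. It marked 8 of 50 such sets. About 2.5, or 1 in 20, would be marked by chance if levels followed a normal distribution. Low counts on the linear CPM scale are skewed, so the 8 are not read as an excess. ISL1CKO 6 stood apart for Wnt5a at 3.81 CPM (others 0.466 to 1.05 CPM), for Lrp6 at 80.0 CPM (others 28.4 to 47.1 CPM) and for Lgr5 at 2.13 CPM (others 0.299 to 0.948 CPM). Control 3 stood apart for Fzd10 at 5.26 CPM (others 0.0732 to 1.43 CPM) and for Ryk at 32.0 CPM (others 4.14 to 14.6 CPM). Control 4 stood apart for Rspo2 at 8.67 CPM (others 1.33 to 3.01 CPM) and for Lgr5 at 15.9 CPM (others 0.814 to 5.12 CPM). ISL1CKO 1 stood apart for Rspo2 at 28.6 CPM (others 1.12 to 7.66 CPM). Controls 3 and 4 and ISL1CKO 6 were also the only libraries with Xist and almost no Y-linked transcripts. The part of sex in these values was not tested.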

How the results depend on the processing

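The count of called members was 4 and lay between 3 and 5 under 8 of the 10 settings that kept or changed more than 1 library; it was 2 with the Schwann cell marker level as a covariate and 1 without ISL1CKO 2, 3 and 5, and ran from 2 to 6 with 1 library left out. Over all genes the count was 767 without ISL1CKO 2, 3 and 5, and 1178 to 1517 with 1 library left out. For the second list these were 10, and 12 to 15. The cause of these changes was not tested. No other set of 3 libraries was left out, so the part of the smaller number of samples was not tested either. With the replicate number as a block, the paired fit called 4 members, Fzd1, Fzd3, Ror1 and Wnt3, and 1450 genes in all. Deviations from the group means correlated weakly between same-numbered libraries (r from -0.056 to 0.152, over 0.1 in 1 of 6 pairs). Of the 6 controls, 2 matched their own number best. These values do not settle whether the numbers pair libraries. The labels state no pairing, so the main fit was left unpaired. Signs turned only for members near 0. With limma-voom the log2 fold changes were 0.08 (Lrp5), -0.01 (Lrp6), 0.41 (Ryk), 0.0022 (Vangl2) and -0.17 (Sfrp1); with the replicate block 0.22 (Lrp5), -0.01 (Lrp6), -0.04 (Ror2), 0.22 (Ryk) and -0.06 (Sfrp1); without ISL1CKO 2, 3 and 5 they were 0.08 (Ryk), -0.03 (Sfrp1) and 0.18 (Axin2). With 1 library left out they ran from -0.48 to 0.15 (Lrp5), -0.17 to 0.17 (Lrp6), -0.24 to 0.23 (Ror2), -0.22 to 0.39 (Ryk), -0.13 to 0.01 (Vangl2), -0.19 to 0.18 (Sfrp1) and -0.32 to 0.0045 (Axin2).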
